A study of Mus musculus with 11 samples.

Results

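The comparison described here set thymic lymphomas that lack the DNA methyltransferase Dnmt3b against normal thymocytes of the same mouse strain. It used 6 of the 11 arrays of the series: the 3 samples titled as Dnmt3b-deficient lymphoma and the 3 titled as normal thymocytes, 1 Affymetrix whole-transcript array per sample, hybridised from 300 ng of total RNA each. All animals were FVB mice. The normal thymocytes carried EμSR-tTA, Teto-Cre and Rosa26LOXPEGFP on a Dnmt3b+/+ background, had no MYC transgene and were taken at 24 days of age. The lymphomas carried the same alleles plus Teto-MYC, were Dnmt3b-/-, and were taken when the tumor burden became apparent, with no age given, and went into TRIzol without sorting. The labels leave unclear if the normal cells had been sorted. Both groups thus shared the tTA activator, which the EμSR promoter drives in blood cells, the Cre recombinase under its control and a lox-controlled EGFP reporter. They differed at once in the MYC transgene, in Dnmt3b, in disease and in age, and these factors cannot be told apart in this comparison. Of the 35512 probe sets in the table, 23410 carried a gene symbol, and the 21789 with 1 symbol represented 19938 genes. The brightest probe set stood for each gene. The labels call the samples of a group biological replicates, without saying whether each came from its own animal.

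MYC is a transcription factor that binds DNA as a dimer with MAX, at E-box sequences such as CACGTG, and is best known for raising the genes of ribosome production, nucleotide synthesis and cell growth. Dnmt3b places new methyl groups on CpG dinucleotides. Thymocytes pass through a CD4 and CD8 double-positive stage, in which the RAG recombinase rearranges the T cell receptor alpha gene and the cells are small, largely resting and easily killed, before they are selected into CD4 or CD8 single-positive cells.

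The values are log2 array signals that bottom out at 3.32, which is log2 of 10; between 23.6% and 24.9% of the values on each of the 6 arrays sat at this floor, and array medians ran from 4.55 to 4.62. Pairs of normal arrays correlated at 0.986 to 0.991 over the 28939 tested probe sets, pairs of lymphoma arrays at 0.973 to 0.986 and pairs across the groups at 0.911 to 0.949. Without probe sets at the floor on all arrays, these ranges were 0.983 to 0.99, 0.967 to 0.983 and 0.891 to 0.937. A gene or probe set was called changed where limma gave a p of under 0.05 after Benjamini-Hochberg adjustment, a linear model with moderated variances. It was fitted to all 11 arrays, and every difference below is the lymphoma mean minus the normal mean on the log2 scale, so that 1 unit is a 2-fold change. Arrays 1 to 3 of each group are given in that order.

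The change was broad and ran in both directions. Of 28939 probe sets tested, 5860 (20.2%) were called changed, 2808 (9.7%) higher and 3052 (10.5%) lower in the lymphomas. Over genes, 4438 of 19938 (22.3%) were called, with 1992 (9.99%) higher and 2446 (12.3%) lower. The groups did not overlap in 1990 of the genes called higher and in 2444 of those called lower. Lack of overlap was also common without a call: over all 19938 genes, 3054 lay higher and 3918 lower without overlap. The median difference over all genes was 0.00. Large rises and large falls were both present: 1093 genes were called higher and 880 lower by at least 2-fold, and 24 and 43 by at least 8-fold. The shares of 9.99% and 12.3% are the background for every list of genes below.

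**Figure D1:**
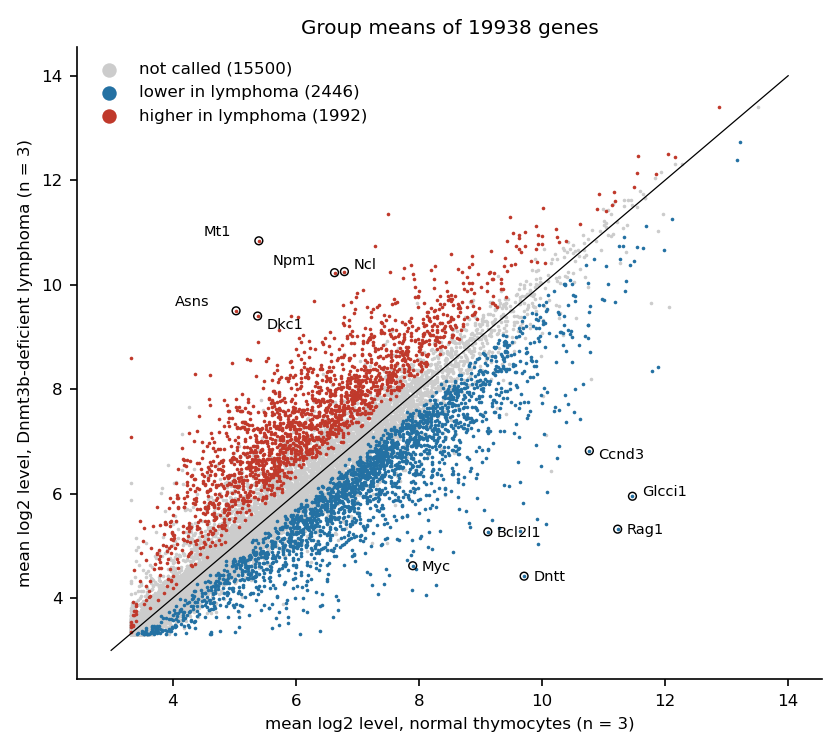
Mean log2 level of each of 19938 genes in normal thymocytes (x axis) and in Dnmt3b-deficient lymphoma (y axis), n = 3 arrays per group; red points were called higher (1992), blue points lower (2446), and the line marks equal levels. Mt1, Asns, Dkc1, Npm1 and Ncl lie far above the line, and Rag1, Glcci1, Dntt, Ccnd3, Bcl2l1 and Myc far below it.

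The sequences before the start sites of 6 genes are shown because these genes mark the opposite ends of the comparison, in which nucleolar genes rose and double-positive thymocyte genes fell. Dkc1, Nop58, Ncl and Gnl3 had the largest rises among the ribosome biogenesis genes that the RefSeq promoter table (mouse build GRCm38.p6) holds, and Rag1 and Dntt the largest falls among the double-positive thymocyte genes. Each run is the 250 bases before the annotated start, read 5′ to 3′ on the gene's strand, with every CpG in capitals, since CpG is what Dnmt3b methylates. The windows lie at chrX:75095604-75095853 on the plus strand (Dkc1), chr1:59684756-59685005 plus (Nop58), chr1:86359456-86359705 minus (Ncl), chr14:31019132-31019381 minus (Gnl3), chr2:101649533-101649782 minus (Rag1) and chr19:41029025-41029274 plus (Dntt).
Dkc1: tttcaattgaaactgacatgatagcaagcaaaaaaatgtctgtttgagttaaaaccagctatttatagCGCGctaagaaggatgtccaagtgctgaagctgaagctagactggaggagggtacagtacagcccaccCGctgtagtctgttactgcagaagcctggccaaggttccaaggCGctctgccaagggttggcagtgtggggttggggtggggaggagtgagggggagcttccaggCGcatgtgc
Nop58: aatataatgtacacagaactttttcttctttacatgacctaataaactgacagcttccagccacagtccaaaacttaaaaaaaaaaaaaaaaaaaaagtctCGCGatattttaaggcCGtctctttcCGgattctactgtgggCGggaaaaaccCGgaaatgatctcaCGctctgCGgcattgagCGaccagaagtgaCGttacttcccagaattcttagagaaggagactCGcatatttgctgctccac
Ncl: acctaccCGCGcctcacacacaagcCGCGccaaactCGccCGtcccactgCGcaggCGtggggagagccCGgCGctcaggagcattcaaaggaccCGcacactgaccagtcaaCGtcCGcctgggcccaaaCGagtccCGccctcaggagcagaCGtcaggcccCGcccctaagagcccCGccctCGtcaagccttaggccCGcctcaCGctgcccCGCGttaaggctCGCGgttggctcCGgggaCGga
Gnl3: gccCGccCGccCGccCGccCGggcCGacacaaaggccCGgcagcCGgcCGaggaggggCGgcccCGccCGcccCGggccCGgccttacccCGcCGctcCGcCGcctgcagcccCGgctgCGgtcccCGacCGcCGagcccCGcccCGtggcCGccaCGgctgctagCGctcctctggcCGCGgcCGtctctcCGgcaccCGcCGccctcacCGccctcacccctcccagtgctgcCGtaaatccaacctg
Rag1: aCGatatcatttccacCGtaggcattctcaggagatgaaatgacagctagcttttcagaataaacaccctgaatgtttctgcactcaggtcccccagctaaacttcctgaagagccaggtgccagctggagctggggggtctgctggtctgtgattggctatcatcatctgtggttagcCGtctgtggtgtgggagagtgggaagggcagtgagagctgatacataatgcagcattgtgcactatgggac
Dntt: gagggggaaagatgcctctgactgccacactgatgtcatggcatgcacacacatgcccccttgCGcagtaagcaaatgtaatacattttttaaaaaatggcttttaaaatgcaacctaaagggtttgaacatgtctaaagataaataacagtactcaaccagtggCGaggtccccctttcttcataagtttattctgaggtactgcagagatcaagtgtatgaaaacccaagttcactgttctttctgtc
The counts of CpG in these windows are 5 for Dkc1, 11 for Nop58, 27 for Ncl, 36 for Gnl3, 3 for Rag1 and 2 for Dntt. The 2 windows of the fallen genes thus hold fewer CpG than any of the 4 windows of the risen genes, although Dkc1 comes close. None of these 6 windows holds CACGTG. Methylation was not measured in the data used here.

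CACGTG, the E-box that MYC and MAX bind, reads the same on both strands and occurs before the starts of Nop2 and Imp4, a ribosomal RNA methyltransferase and a processing factor. These were chosen after the values were seen, as the called ribosome biogenesis genes that hold the motif before the start. Of the 11 genes of that list with the motif between 250 bases before the start and 50 after it, 3 have it before the start, these 2 and Rrn3, which was not called, and 8 have it at or after the start. The windows lie at chr6:125131633-125131882 on the plus strand (Nop2) and chr1:34439579-34439828 on the plus strand (Imp4), and the capitals mark the motif.
Nop2: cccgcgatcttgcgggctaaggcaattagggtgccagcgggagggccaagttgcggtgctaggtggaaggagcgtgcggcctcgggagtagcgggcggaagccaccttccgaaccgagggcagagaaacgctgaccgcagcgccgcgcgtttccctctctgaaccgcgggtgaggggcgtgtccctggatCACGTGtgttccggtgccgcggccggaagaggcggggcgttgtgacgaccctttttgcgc
Imp4: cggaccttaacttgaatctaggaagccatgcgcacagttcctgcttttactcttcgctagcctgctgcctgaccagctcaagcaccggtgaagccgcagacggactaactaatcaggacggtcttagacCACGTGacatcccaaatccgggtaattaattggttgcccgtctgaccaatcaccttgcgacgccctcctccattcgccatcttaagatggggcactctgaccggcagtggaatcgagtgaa
The motif begins 60 bases before the start of Nop2 and 121 bases before that of Imp4. Nop2 rose by 1.35 and Imp4 by 0.51, both called. In windows of 300 bases, from 250 before the start to 50 after it, CACGTG occurred in 261 of 1618 (16.1%) genes called higher that have a window, in 224 of 1993 (11.2%) called lower and in 998 of 12003 (8.31%) not called. The share was 9.5% (1483 of 15614) over all genes with a probe set of their own and a window, and 7.15% over all 32851 windows of the table. Within the lists it was 11 of 43 (25.6%) ribosome biogenesis genes, 0 of 13 double-positive thymocyte genes and 14 of 29 (48.3%) germline genes, which did not rise as a group. CpG counts had a median of 24 per window in genes called higher, 22 in genes called lower, 13 in genes not called and 16 over all genes. Genes not called include the 2679 at the floor on all 6 arrays, where no change could be read. The part of expression level in these CpG and CACGTG contrasts was not tested. Double-positive thymocyte genes and mature single-positive genes each had a median of 4, and interferon-stimulated genes one of 6.5. A match describes these letters only, and binding was not measured.

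The targeted gene could not be checked on its level. Dnmt3b read 5.22, 5.31 and 5.30 in normal thymocytes and 5.26, 5.49 and 5.40 in lymphomas. The groups overlapped, and the difference was 0.11 (SE 0.10, limma adjusted p = 0.593). The sources used here do not say which part of the gene the probe set covers or whether that part is deleted, so the value does not bear on the deletion. Dnmt1, which copies methylation after replication, read 9.37, 9.47 and 9.42 in normal thymocytes and 9.88, 9.74 and 9.68 in lymphomas, higher in all 3 tumors, by 0.35 (SE 0.06, adjusted p = 0.00482). Dnmt3a, the other enzyme of new methylation, read 7.90, 7.82 and 7.84 against 7.44, 6.79 and 6.99. All 3 lymphomas lay below all 3 normal samples, with a difference of -0.78 that did not pass (SE 0.35, adjusted p = 0.191). The same difference was called when wild-type lymphoma replicate 3 was left out of the fit (limma adjusted p = 0.0174).

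Myc itself was lower in the tumors that carry the MYC transgene. Its probe set read 7.79, 8.13 and 7.77 in normal thymocytes and 4.93, 4.29 and 4.63 in lymphomas, without overlap, a fall of 9.71-fold (difference -3.28, SE 0.23, adjusted p = 0.000266). The sources used here do not say if the probe set also reads the transgene's RNA. Of the 13 genes of the MYC and MAX network, 1 rose and 6 fell. Max, the common partner, did not differ (8.41, 8.39 and 8.48 against 8.45, 8.36 and 8.30, adjusted p = 0.604). The MAX-binding repressors Mxd4, Mxd3 and Mxd1 fell by 2.40, 1.30 and 1.00, and their relative Mlx fell by 0.86. Mga, a larger MAX partner that represses germline genes, was the rise (1.59, adjusted p = 0.0307), but it was not called without normal replicate 1 or 2 or lymphoma replicate 1 or 2 (adjusted p of 0.0597, 0.0522, 0.0699 and 0.1).

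Among genes with a full name, predicted and clone-named genes left aside, Mt1, Asns, Dkc1, Ccnb1ip1, Hsp90aa1 and Nr1h5 had the largest rises. One clone-named gene, AI506816, lay among them: it was at the floor in all 3 normal samples and rose by at least 5.27 (adjusted p = 9.95e-05). Mt1, a metallothionein that binds zinc and copper, read 5.66, 5.74 and 4.79 in normal thymocytes and 11.40, 10.76 and 10.37 in lymphomas, 43.5-fold higher (difference 5.44, SE 0.32, adjusted p = 0.000149). Every lymphoma exceeded every normal sample by more than 4 units. Mt2 stands beside it but varied more, with 4.87, 3.86 and 5.06 against 10.16, 7.05 and 7.64. Its rise of 3.69 (adjusted p = 0.0162) had an adjusted p of 0.0602 without normal replicate 2, and without lymphoma replicate 1 it was 2.75. Asns, which makes asparagine, read 5.18, 4.72 and 5.18 against 9.59, 9.84 and 9.06, a 22.2-fold rise in which the groups lay far apart (difference 4.47, SE 0.31, adjusted p = 0.000259). Ccnb1ip1, a ubiquitin ligase known from meiotic crossing over, rose by 3.92 (15.2-fold), from 4.43, 4.26 and 4.40 to 9.05, 8.06 and 7.74. Tfrc, the transferrin receptor that brings iron into the cell, read 6.34, 5.70 and 6.83 against 10.22, 10.09 and 8.77 and rose 10.6-fold (difference 3.40, SE 0.52, adjusted p = 0.00381). Nr1h5 was at the floor in all 3 normal samples and read 7.36, 7.85 and 6.03 in the lymphomas, so its difference was at least 3.76 (adjusted p = 0.0237); this call was lost without any 1 normal replicate or without lymphoma replicate 1 or 2 (adjusted p from 0.0618 to 0.0828).

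**Figure D2:**
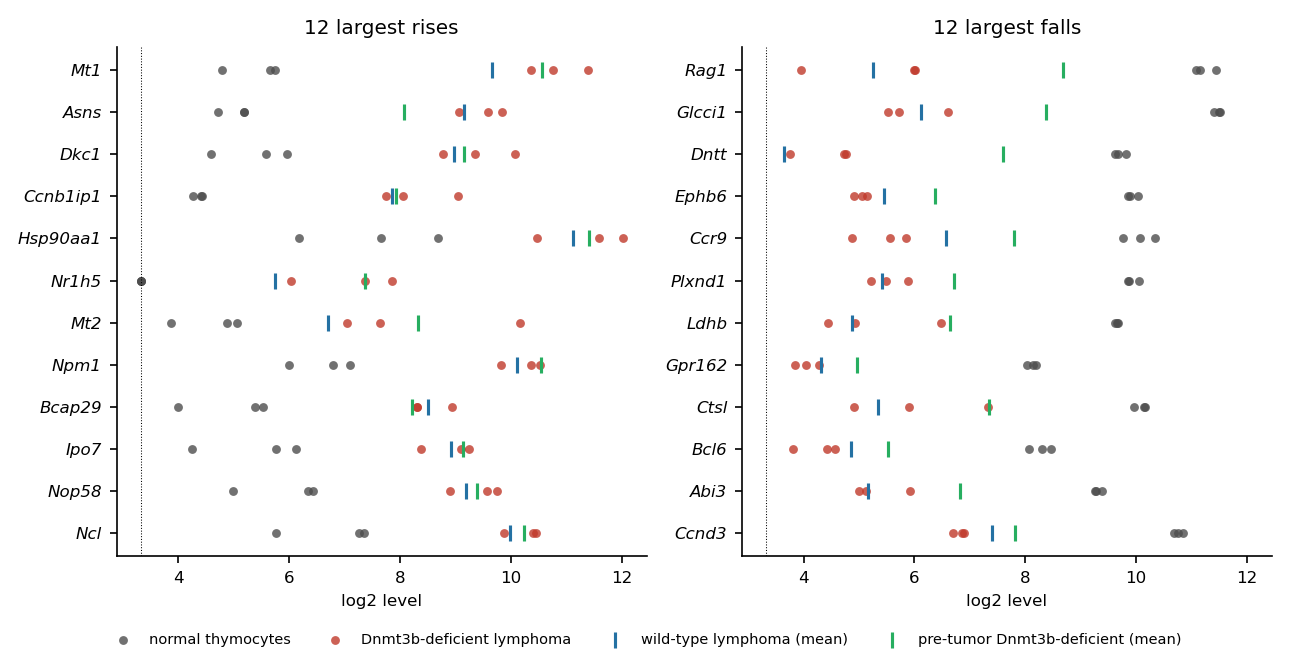
Log2 level of the 12 genes with the largest rises and the 12 with the largest falls among named genes, in each normal thymocyte array (grey points) and each Dnmt3b-deficient lymphoma array (red points), n = 3 per group, with the means of wild-type lymphomas (blue ticks) and pre-tumor thymocytes (green ticks); the dotted line is the floor of 3.32. The genes were chosen among those whose grey and red points do not overlap, and the largest fall, Rag1, runs from a normal mean of 11.23 to a lymphoma mean of 5.32.

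Ribosome biogenesis had the highest share of raised genes among the 44 lists. Of 49 measured members, 42 were called and all 42 were higher, against a background of 9.99% of genes; the median difference over the 49 was 1.27. Npm1, the nucleolar chaperone nucleophosmin, read 7.09, 6.0 and 6.80 in normal thymocytes and 10.36, 10.52 and 9.82 in lymphomas, 12.2-fold higher (difference 3.60, SE 0.33, adjusted p = 0.000577). Ncl, or nucleolin, a main protein of the nucleolus, read 7.26, 5.77 and 7.35 against 10.46, 10.41 and 9.88, 11-fold higher (SE 0.43, adjusted p = 0.00173). Both groups were separated by more than 2 units in these genes. Dkc1, the enzyme that makes pseudouridine in ribosomal RNA, read 5.59, 4.59 and 5.97 against 9.35, 10.07 and 8.77 and rose 16.1-fold (difference 4.01, SE 0.45, adjusted p = 0.00112). Nop58, a core protein of the methylation-guide particles, went from 6.34, 4.99 and 6.43 to 9.57, 9.75 and 8.90, and Gnl3, the GTP-binding protein nucleostemin, from 5.93, 4.98 and 6.27 to 9.16, 9.43 and 8.83. Their rises were 11.2-fold and 10.6-fold, again with no overlap. Smaller rises covered RNA polymerase I (Polr1a by 1.61 and Polr1b by 2.24), the box C/D proteins Fbl (1.48) and Nop56 (1.11), the box H/ACA proteins Gar1, Nhp2 and Nop10 (1.14, 1.30 and 1.01) and the Pes1-Bop1-Wdr12 complex of the large subunit (1.01, 1.15 and 1.27).

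The lymphoma arrays were not alike in these genes. Lymphoma replicate 3 was the lowest of the 3 lymphomas in 28 of the 42 risen ribosome biogenesis genes. Normal replicate 2 was the lowest of the 3 normal samples in 15 of the 42, which does not set it apart there. How often each array was the lowest over all risen genes was not counted, here or for the lists below. Over all genes, normal replicate 2 lay at least 0.5 below both other normal arrays in 572 genes, of which 299 (52.3%) were called higher in the lymphomas. The same distance put lymphoma replicate 3 below both other lymphomas in 477 genes, of which 251 (52.6%) were called higher. Lymphoma replicate 1 stood apart in more genes than these, below both others in 693 (4.5% called higher, 17.9% lower) and above both in 652 (65 called higher, 68 lower). What sets these arrays apart was not tested. Without normal replicate 2, 42 ribosome biogenesis genes were called higher, and without lymphoma replicate 3, 43. The rise of Npm1 was 3.29, that of Ncl 2.94 and that of Nop58 3.02 without normal replicate 2.

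Ribosomal proteins moved less than the factors that assemble ribosomes. Of 52 cytosolic ribosomal protein genes, a family picked by symbol after the values were seen, 18 were called, all higher, with a median difference of 0.25; the largest rises were Rpl5 (1.47) and Rpl4 (1.46). Without normal replicate 2, 11 were called. Of 77 mitochondrial ribosomal proteins, 21 rose and 3 fell (median 0.30), led by Mrpl1 (1.68), Mrpl47 (1.58) and Mrpl50 (1.55). The rises numbered 13, 11 and 10 without normal replicates 1, 2 and 3, and 12 without lymphoma replicate 1 or 2. Among 51 small nucleolar RNAs, which guide the modification of ribosomal RNA, 10 rose and 3 fell, with Snora75 up by 2.64 and Snord61 down by 2.50; the falls numbered 8 without normal replicate 3 and 1 without normal replicate 1 or 2 or lymphoma replicate 1 or 2. Members of these families have many near-identical copies in the genome, and the sources used here do not say how the probes treat the copies.

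Translation initiation and nuclear transport genes rose as well. Of 21 initiation factors measured, 13 rose and 1 fell, with a median difference of 0.80. Eif4e, which binds the mRNA cap, read 7.88, 7.51 and 8.08 in normal thymocytes and 9.18, 9.51 and 8.84 in lymphomas (difference 1.35, SE 0.22, adjusted p = 0.0052). Eif3a, the large scaffold of eIF3, showed the largest rise (7.24-fold), from 7.08, 6.09 and 7.14 to 9.76, 9.78 and 9.33. Neither gene overlapped between the groups. Eif4a1, the helicase of the cap complex, read 11.23, 11.30 and 11.45 against 11.80, 11.69 and 11.39 and did not pass (difference 0.30, adjusted p = 0.13), except without lymphoma replicate 3, at 0.42 (adjusted p = 0.0296). Eif2b2, a subunit of the eIF2 exchange factor, was the single fall, by 0.35; it was not called without normal replicate 1 or 2 or lymphoma replicate 1 or 2. In nuclear transport, 19 of 26 genes were called, all higher (median 1.03). The importin Ipo7, which carries ribosomal proteins into the nucleus, read 6.13, 4.24 and 5.77 against 9.11, 9.24 and 8.38 (11.6-fold, adjusted p = 0.00249). Kpna3, Xpo1, the main export receptor, and Cse1l, which returns importin alpha to the cytoplasm, rose by 2.78, 2.45 and 2.38. The lowest array of these risen genes was lymphoma replicate 3 in 18 of 19 and normal replicate 2 in 15 of 19 within their groups. Without normal replicate 2 the rise of Ipo7 was 2.96, and 18 genes of the list were called higher.

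Chaperones rose in 21 of 26 cases and fell in 1, with a median difference of 1.31. Hspd1, the mitochondrial chaperonin, read 7.44, 6.85 and 7.59 in normal thymocytes and 11.05, 10.88 and 10.30 in lymphomas, 10.9-fold higher (difference 3.45, SE 0.28, adjusted p = 0.000418). Hsp90aa1, the inducible cytosolic HSP90, read 7.65, 6.17 and 8.68 against 12.02, 11.59 and 10.47 (difference 3.86, SE 0.64, adjusted p = 0.00515). The groups did not overlap, but both were spread, and the difference was 3.19 without normal replicate 2 and 4.45 without normal replicate 3. The endoplasmic reticulum chaperone Hsp90b1, mitochondrial Hspa9 and the chaperonin subunit Cct8 rose by 2.86, 2.72 and 2.56. Dnajb1, a heat-inducible HSP40, was the gene that fell, by 1.34. Lymphoma replicate 3 was the lowest lymphoma in 20 of the 21 risen genes. Without it, 23 were called higher. Of 39 proteasome subunits, a family chosen after the values were seen, 13 rose and 2 fell (median 0.33), with 8 rises and 0 falls without normal replicate 2.

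Genes that supply building blocks were raised across several pathways. In the list of nucleotide, one-carbon and polyamine synthesis, 24 of 31 rose and 1 fell, with a median of 1.17. Cad, which starts pyrimidine synthesis, read 7.57, 7.56 and 7.43 against 9.38, 8.88 and 9.17 (difference 1.62, SE 0.14, adjusted p = 0.000448). Odc1 and Srm, which make putrescine and spermidine, rose by 1.48 and 2.05. The purine enzymes Gmps, Adss and Ppat rose by 2.45, 1.98 and 1.94, and the folate enzymes Shmt1 and Mthfd1l by 2.05 and 1.87. Impdh1, an IMP dehydrogenase, was the fall, by 0.62, and was not called without normal replicate 1 or 2 or lymphoma replicate 1 or 2. Lymphoma replicate 3 was the lowest lymphoma in 15 of the 24 risen genes.

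In the list of amino acid transport and the ATF4 response, 13 of 28 genes rose, Asns among them, and 1 fell, with a median of 0.52. The risen genes besides Asns were 6 transporter genes and 6 tRNA synthetases. The transcription factors Atf4 and Atf5 (differences 0.30 and 0.03) and the stress genes Ddit3, Trib3, Chac1 and Sesn2 (-0.34, 0.24, -0.11 and 0.28) were not called. The large neutral amino acid transporter Slc7a5 read 7.88, 7.99 and 7.91 in normal thymocytes and 10.13, 9.78 and 9.96 in lymphomas, a 4.08-fold rise with little spread in either group (SE 0.12, adjusted p = 0.000138). The cationic amino acid transporter Slc7a1 rose by 1.59, the glutamine transporter Slc1a5 by 1.19 and the synthetases Iars and Tars by 1.55 and 1.46. The cystine transporter Slc7a11 went the other way, from 6.63, 6.36 and 7.07 to 3.74, 3.32 and 4.24 (difference -2.92, adjusted p = 0.0175), although the adjusted p rose to between 0.0501 and 0.0637 when normal replicate 1 or 3, or lymphoma replicate 1 or 2, was left out.

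Glycolysis genes rose in 11 of 20 cases and fell in 1, with a median of 0.91. Ldha, the lactate dehydrogenase subunit that favours lactate, read 10.85, 10.93 and 10.98 against 11.73, 11.76 and 11.72 (difference 0.82, SE 0.04, adjusted p = 0.000116). Its partner Ldhb fell 20.7-fold, from 9.68, 9.62 and 9.66 to 6.48, 4.44 and 4.93 (difference -4.37, SE 0.73, adjusted p = 0.00526), and the fall was 4.97 without lymphoma replicate 1. The 2 subunits of the same enzyme thus moved in opposite directions, each without overlap. Tpi1, Pgam1, Pfkp, Pgk1 and the hexokinase Hk2 rose by 1.68, 1.60, 1.26, 1.26 and 1.23. Fatty acid synthesis genes Acaca and Fasn rose by 2.04 and 1.12, while Dhcr7, which completes cholesterol, fell by 1.01; of the 17 sterol and fatty acid genes, 4 rose and 2 fell, and 2 rose without normal replicate 2. Among 14 genes of iron and metal handling, 6 rose and 2 fell, but 0 fell without any 1 normal replicate or lymphoma replicate 2, and 1 without lymphoma replicate 3.

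**Figure D3:**
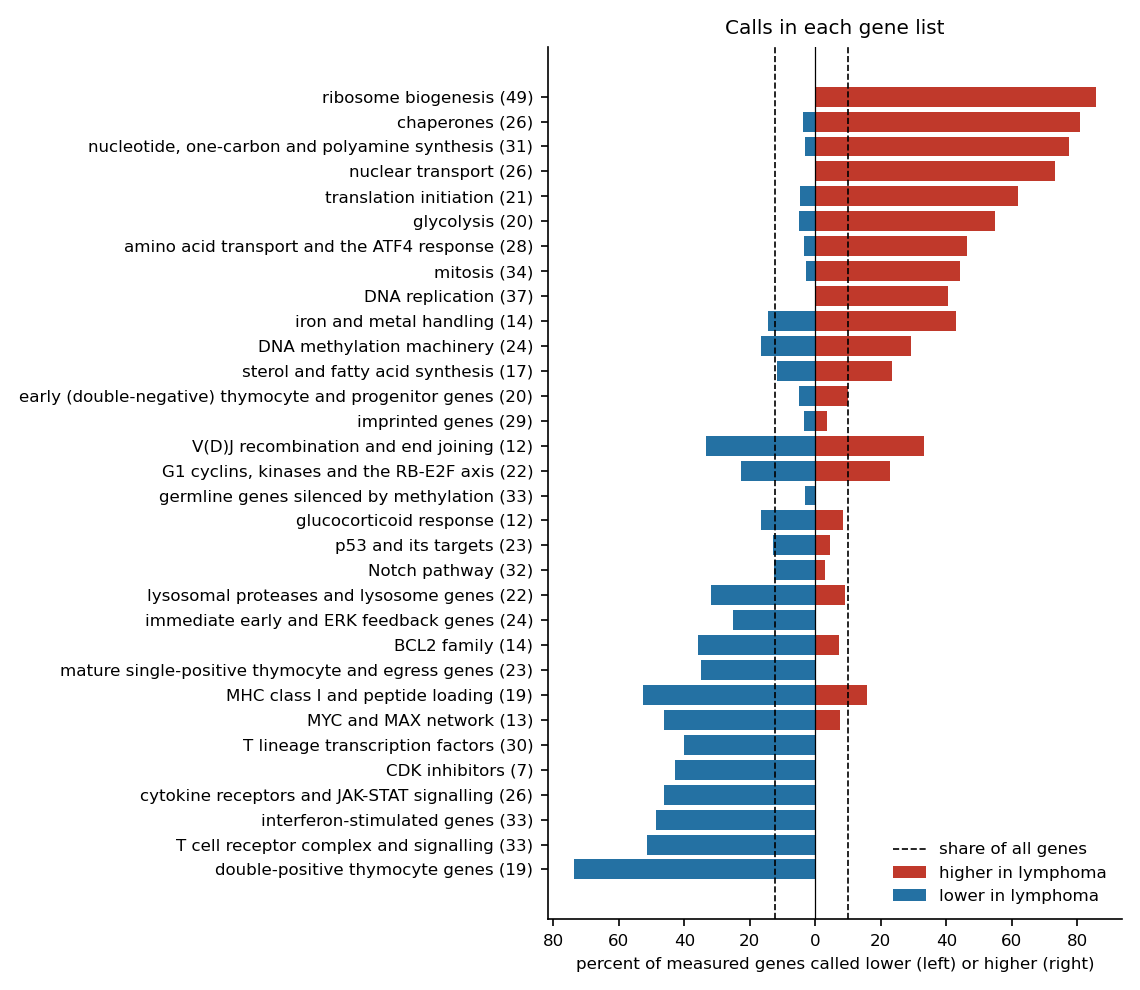
Percent of the measured genes of each list called higher (red bars, to the right) or lower (blue bars, to the left) in Dnmt3b-deficient lymphoma than in normal thymocytes, with the number measured in parentheses; the dashed lines mark the share of all genes called higher (9.99%) and lower (12.3%). Ribosome biogenesis, with 42 of 49 genes higher, and double-positive thymocyte genes, with 14 of 19 lower, are at the ends.

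DNA replication genes leaned upward by small steps. All 37 had a positive difference, the median was 0.33, and 15 were called, each of them higher. Mcm6, a subunit of the replicative helicase, read 8.55, 8.45 and 8.58 against 9.77, 9.92 and 9.70 (difference 1.27, SE 0.06, adjusted p = 9.95e-05). Pole, the catalytic subunit of the leading-strand polymerase, rose by 1.55 with similarly tight arrays (6.71, 6.57 and 6.65 against 8.14, 8.26 and 8.17). The largest rise, Pola1 of polymerase alpha, was 2.69, from 4.73, 4.36 and 5.61 to 7.59, 8.21 and 6.97. In contrast, Mcm2 read 9.70, 9.63 and 9.72 against 9.99, 9.64 and 9.71, with overlap (adjusted p = 0.76).

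Mitotic genes gave a less stable count. Of 34 measured, 15 rose and 1 fell (median 0.55), but 9 rose without normal replicate 2 or lymphoma replicate 1, and 8 without lymphoma replicate 2 or when the 2 groups were fitted alone. Bub1, a spindle checkpoint kinase, read 4.41, 3.62 and 5.03 in normal thymocytes and 7.13, 7.51 and 6.36 in lymphomas (difference 2.65, SE 0.49, adjusted p = 0.00823). Mki67, the proliferation antigen Ki-67, read 7.27, 6.35 and 7.64 against 8.68, 9.24 and 8.88 (difference 1.85, adjusted p = 0.0107). Normal replicate 2 was the lowest normal array in 12 of the 15 risen genes. Cdk1, the main mitotic kinase, read 8.16, 8.14 and 7.89 against 7.93, 8.20 and 8.07, with overlap and a difference of 0.01 (adjusted p = 1.00). Foxm1, a transcription factor of mitotic genes, fell by 0.78.

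Regulators of entry into the cell cycle changed in both directions. Of 22 genes of the G1 and RB-E2F list, 5 rose and 5 fell; 3 rose without normal replicate 1 or 3 or lymphoma replicate 3, and 2 without lymphoma replicate 2. Ccnd3, the D-type cyclin that thymocyte expansion requires, read 10.85, 10.69 and 10.76 against 6.69, 6.86 and 6.90, a 15.4-fold fall between tight groups (difference -3.95, SE 0.32, adjusted p = 0.000427). E2f2 and Rbl2, an RB relative, fell by 1.83 and 1.26, while E2f6, a repressive E2F, rose by 0.97. Cdk6, a kinase that D-type cyclins activate, read higher in the lymphomas (9.89, 9.78 and 9.60 against 7.91, 7.72 and 8.15, difference 1.83, adjusted p = 0.0279), though the adjusted p was 0.0554 to 0.091 without any 1 of the 6 arrays. The CDK inhibitor p27, Cdkn1b, read 9.16, 9.06 and 9.17 against 6.61, 6.74 and 7.22 (difference -2.27, SE 0.14, adjusted p = 0.000174), and Cdkn2d fell by 2.46. All 7 inhibitors measured had a negative difference, and 3 were called. The third, Cdkn3, a phosphatase of cyclin-dependent kinases, fell by 0.38 (adjusted p = 0.0475) and was not called in 18 of the alternative fits (adjusted p from 0.0507 to 0.15), among them those with either other scaling, with the replicate block, without any 1 normal array or without lymphoma replicate 1 or 3.

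Survival genes of the BCL2 family fell together with some death genes. Of 14 members, 5 fell and 1 rose. Bcl2l1, which encodes BCL-XL, the survival protein of double-positive thymocytes, read 9.12, 9.22 and 9.03 in normal thymocytes and 5.27, 5.31 and 5.23 in lymphomas. The 14.4-fold fall came with almost no spread in either group (difference -3.85, SE 0.20, adjusted p = 0.000112). Bcl2 and Mcl1, also survival proteins, fell by 1.46 and 1.20, and the BH3-only killer Bmf fell by 2.05. Bcl2l11, or BIM, read 7.91, 7.77 and 7.99 against 7.83, 6.49 and 6.83 and did not pass (adjusted p = 0.109), but was called without lymphoma replicate 1, at -1.23, and with the dimmest probe sets left out (adjusted p = 0.0401). Bid, another killer, was the rise (1.00). Of 23 genes of the p53 list, 3 fell (Btg2 by 2.71, Fas by 1.89 and Gadd45a by 1.25) and 1 rose (Ccng1 by 1.90), with a median of 0.0. The share of falls, 13.0%, was near the 12.3% of all genes. The rises numbered 2 without normal replicate 2 or 3 and 3 without lymphoma replicate 1. Mdm2, a feedback target of p53, overlapped between the groups (7.0, 6.74 and 7.20 against 6.56, 6.95 and 6.61, adjusted p = 0.30).

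Genes of the double-positive thymocyte had the largest share of lower calls among the lists. Of 19 measured, 14 were called, all lower, against a background of 12.3%, and all 19 differences were negative, with a median of -2.50. Rag1, a subunit of the recombinase that cuts receptor genes, read 11.09, 11.16 and 11.45 in normal thymocytes and 3.95, 6.01 and 6.0 in lymphomas, a 60.2-fold fall (difference -5.91, SE 0.89, adjusted p = 0.00345). Lymphoma replicate 1 was near the floor, and without it the fall was 5.23. Rag2, the other subunit, read 6.04, 5.66 and 6.50 in normal thymocytes and was at the floor in all 3 lymphomas, a fall of at least 2.75. Dntt, which adds untemplated bases to receptor joints, read 9.68, 9.62 and 9.82 against 4.73, 3.76 and 4.76, 39.1-fold lower (SE 0.35, adjusted p = 0.000203). None of these 3 genes overlapped between the groups. The list of V(D)J recombination and end joining, which also holds them, was divided: of 12 measured, 4 rose and 4 fell, with a median of -0.58. Besides Rag1, Rag2 and Dntt, the end-joining factor Nhej1 fell, by 0.57. Xrcc5, or Ku80, and Prkdc, both of end joining, rose by 1.95 and 1.83, the damage kinase Atm by 2.80 and the polymerase Poll by 0.83. Xrcc4, Xrcc6, Lig4 and Polm were not called (differences of 0.05, -0.60, -0.90 and -0.69).

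Among the other double-positive genes, the chemokine receptor Ccr9 read 10.07, 9.76 and 10.35 against 5.56, 5.84 and 4.87 (difference -4.64, SE 0.97, adjusted p = 0.0135). The chromatin organiser Satb1 read 11.86, 11.82 and 11.97 against 8.88, 8.18 and 8.23 (difference -3.46, SE 0.36, adjusted p = 0.000888). Arpp21, Ets2, Aqp11, Slamf1 and Tox fell by 3.66, 3.01, 2.79, 2.55 and 2.33. The glucocorticoid-induced transcript Glcci1, in another list, fell 46.0-fold, from 11.52, 11.41 and 11.49 to 5.52, 5.73 and 6.61. The receptor Ephb6, a kinase-dead Eph protein of thymocytes, fell 29.6-fold (10.04, 9.89 and 9.85 against 5.15, 5.05 and 4.91, adjusted p = 9.95e-05). Plxnd1, a semaphorin receptor that guides thymocyte migration, fell by 4.40, and Bcl6, a transcriptional repressor, by 4.02. Glcci1, Ephb6, Plxnd1 and the lactate dehydrogenase gene Ldhb, none of them in the double-positive list, were thus among the deepest single falls. In all of these genes each lymphoma lay below each normal sample. In bulk RNA, fewer cells of a type and less RNA of a gene per cell cannot be told apart.

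T cell identity genes fell but stayed well above the floor. Of the 10 lineage markers measured, 7 fell, and their summed linear signal ran from 15272 to 16129 in normal thymocytes and from 5047 to 5986 in lymphomas. Cd3e, a signalling chain of the receptor complex, read 10.25, 10.57 and 10.58 against 9.11, 9.03 and 9.02 (difference -1.41, SE 0.15, adjusted p = 0.000967). Cd3g read 11.72, 11.51 and 11.69 against 10.58, 10.81 and 10.69, and Cd4 read 10.78, 10.72 and 10.74 against 8.50, 9.21 and 9.24. The lowest of these lymphoma values, 8.50, was far above the floor, while every lymphoma was below every normal sample. Thy1, Cd3d and Cd7 fell by 1.5, 1.36 and 2.08.

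Of 33 genes of the T cell receptor and its signalling, 17 were called, all lower, with a median of -0.99; without normal replicate 2, 12 were. Cd2, an adhesion receptor, read 10.81, 10.62 and 10.40 against 6.51, 7.50 and 8.27 (difference -3.18, SE 0.39, adjusted p = 0.00158), with lymphoma replicate 1 the lowest. The adaptors Sla2 and Sla, which dampen receptor signals, fell by 2.34 and 2.30, the zeta chain Cd247 by 1.85, the phospholipase Plcg1 by 1.52, the adaptor Lat by 1.46, the kinase Fyn by 1.41 and the kinase Zap70 by 1.01. Outputs of receptor and ERK signalling were lower in 6 of 24 genes, or in 10 with either filter on dim probe sets, with a median of -0.68. The ERK phosphatase Dusp6 read 8.60, 8.80 and 8.56 against 5.39, 5.84 and 5.87 (7.76-fold lower, adjusted p = 0.00151), and Spred1 and Nr4a1 fell by 1.74 and 1.55. Egr1 read 6.84, 7.06 and 7.07 against 4.78, 5.93 and 6.22, below in each lymphoma but not called (adjusted p = 0.0573). It was called with quantile scaling, with median centring, with either filter on dim probe sets, or without lymphoma replicate 3, where the difference was -1.64 (adjusted p from 0.0149 to 0.049).

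T lineage transcription factors fell in 12 of 30 cases, with a median of -0.82 and 26 negative differences. Lef1, a partner of beta-catenin, read 10.67, 10.55 and 10.76 against 6.97, 8.36 and 8.99 (difference -2.55, SE 0.49, adjusted p = 0.009). Gata3, needed for CD4 T cells, read 9.30, 9.16 and 9.26 against 6.71, 7.67 and 8.30 (difference -1.68, SE 0.35, adjusted p = 0.0127). Lymphoma replicate 1 was the lowest in both genes. Neither was called with the 2 groups fitted alone (limma adjusted p = 0.0531 for Lef1 and 0.0785 for Gata3). Sox4, Bcl11b, Ets1 and Id3 fell by 1.80, 1.78, 1.27 and 1.17. In the Notch pathway, 4 of 32 genes fell (12.5%, against 12.3% of all genes) and 1 rose (3.12%, against 9.99%), so the falls were at the background share. The falls numbered 7 without lymphoma replicate 2 or with either filter on dim probe sets. The rises numbered 2 without any 1 lymphoma replicate or without wild-type lymphoma replicate 1 or 3, 3 with median centring, 4 with either filter and 0 with the 2 groups alone. Notch1 itself read 8.98, 9.09 and 9.09 against 6.55, 8.70 and 7.30 and missed the threshold (difference -1.54, adjusted p = 0.0569), but it passed with quantile scaling, median centring or either filter on dim probe sets (adjusted p from 0.0143 to 0.0429), and at -2.13 without lymphoma replicate 2. Its target Hes1 overlapped between the groups (5.48, 5.48 and 5.72 against 5.48, 6.10 and 5.25), while Notch3 and Ptcra, the pre-T cell receptor chain, fell by 1.18 and 1.17.

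The falls in double-positive genes were not matched by rises in lists of other thymocyte stages. Of 20 genes of early thymocytes and progenitors, 2 rose and 1 fell, with a median of -0.07; 0 rose without normal replicate 1 or 3, and 1 without normal replicate 2 or lymphoma replicate 2 or 3. Kit, the receptor of early progenitors, fell by 0.81. Lyl1 was higher in each lymphoma (5.82, 6.84 and 6.99 against 5.28, 5.51 and 5.44, difference 1.14, adjusted p = 0.0342), but its adjusted p ran from 0.0796 to 0.113 without any 1 normal replicate or without lymphoma replicate 2 or 3. Of 23 genes of mature single-positive cells, 8 were called, all lower (median -0.91), among them Ccr7 by 1.47, Itgae by 1.64, Gimap6 by 1.90 and Ifngr1 by 2.14. Gimap6 was not called with the 2 groups fitted alone (limma adjusted p = 0.0512). S1pr1, the egress receptor, read 6.87, 6.88 and 6.83 against 6.36, 7.49 and 7.77, on both sides of the normal values (adjusted p = 0.758).

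Genes that sense cytokines and interferon and genes that display peptides were lower. In the cytokine receptor and JAK-STAT list 12 of 26 were called, all lower (median -0.55), and 8 without normal replicate 2. Il4ra, the interleukin 4 receptor, read 9.45, 9.59 and 9.78 against 6.50, 6.60 and 6.74 (difference -3.0, SE 0.48, adjusted p = 0.00454), and the interferon receptor chains Ifngr1, Ifngr2 and Ifnar1 fell by 2.14, 1.55 and 1.44. Il7r, the interleukin 7 receptor, overlapped between the groups (6.19, 4.73 and 6.54 against 6.02, 6.80 and 8.10, adjusted p = 0.307). Of 33 interferon-stimulated genes, 16 were called, all lower, with a median of -0.57. Irf7, a main amplifier of the interferon response, read 7.85, 7.46 and 6.90 against 5.12, 4.83 and 5.17 (difference -2.36, SE 0.22, adjusted p = 0.000653). Zbp1, a sensor of unusual nucleic acids, read 6.89, 7.02 and 6.91 against 4.78, 4.63 and 5.05, and Rtp4, Usp18 and Irf9 fell by 2.71, 1.89 and 1.71.

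In MHC class I and peptide loading, 10 of 19 fell and 3 rose (median -0.53). The nonclassical heavy chain gene H2-T10 read 10.33, 10.27 and 10.15 against 7.40, 6.68 and 5.99, 11.8-fold lower (adjusted p = 0.0011). The peptide transporter genes Tap1 and Tap2 and the loading factor Tapbp fell by 1.21, 1.04 and 1.54. B2m, the light chain shared by all class I molecules, did not follow: it read 10.74, 10.19 and 10.57 against 10.44, 10.71 and 10.66, with overlap (difference 0.10, adjusted p = 0.758). The risen genes were Canx and Pdia3, which fold many glycoproteins in the endoplasmic reticulum, and Erap1, which trims peptides, by 2.50, 1.16 and 2.17. The heavy chain genes are close copies of each other, so their probe sets may share signal.

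Lysosomal genes fell in 7 of 22 cases and rose in 2, or in 1 without normal replicate 2 or 3 or lymphoma replicate 1 or 3. Ctsl, the protease cathepsin L, read 10.16, 9.96 and 10.14 against 7.33, 5.90 and 4.91 (difference -4.04, SE 0.56, adjusted p = 0.00249), and the fall was 4.68 without lymphoma replicate 1. Ctsd, Ctsw and Hexa fell by 1.98, 1.82 and 1.68. Lamp2, a lysosomal membrane protein, rose 6.86-fold, from 5.88, 5.56 and 5.62 to 8.14, 9.15 and 8.10, while Lamp1 read 8.73, 8.95 and 8.64 against 8.61, 8.31 and 8.17 and was not called (adjusted p = 0.0912), but it was with quantile scaling (adjusted p = 0.0323) or without lymphoma replicate 1, at -0.53 (adjusted p = 0.0366). In the glucocorticoid list the receptor gene Nr3c1 overlapped between the groups (adjusted p = 1.00), and of the 12 genes measured Klf9 rose by 1.39 and Txnip, like Glcci1, fell, by 1.75; without lymphoma replicate 1, 2 rose and 4 fell.

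In the list of DNA methylation machinery 7 of 24 genes rose (29.2%, against 9.99% of all genes) and 4 fell. The rises numbered 5 without normal replicate 2 and 5 with the 2 groups fitted alone. Lymphoma replicate 3 was the lowest lymphoma in 6 of the 7 risen genes, and normal replicate 2 the lowest normal array in 6. Hells, a chromatin remodeller that DNA methylation requires, read 5.60, 4.73 and 6.18 against 8.52, 8.90 and 8.19, an 8.18-fold rise without overlap (SE 0.39, adjusted p = 0.00187), and Smchd1, which maintains silencing of the inactive X, rose by 1.67. Tet3, which oxidises methylcytosine, fell by 0.73. Of 33 germline genes that methylation is known to silence, the call was a fall, Spo11, the enzyme of meiotic breaks (-2.73, from 7.50, 6.85 and 7.25 to 4.76, 4.28 and 4.38). Sycp1, of the synaptonemal complex, was at the floor in all 3 normal samples and read 7.19, 7.03 and 3.41 in lymphomas, a split within the tumors that left it uncalled (adjusted p = 0.111); it was called without lymphoma replicate 3, at a difference of at least 3.79, and with the dimmest probe sets left out (adjusted p = 0.0338). Germline genes called higher numbered 3 without lymphoma replicate 1 or with the dimmest probe sets left out. Dazl was at the floor in all 6. Of 29 imprinted genes, Impact rose by 1.62 and Plagl1 fell by 0.37; Plagl1 was not called without normal replicate 2 or 3 or lymphoma replicate 1 or 2 (adjusted p from 0.058 to 0.0985). Ment, listed on the array as Gm128, a gene that earlier work on this model ties to Dnmt3b loss, read 4.47, 4.80 and 4.44 against 4.91, 5.28 and 5.20. It was higher in each lymphoma by 0.56 (SE 0.13, adjusted p = 0.019), but the call was lost without normal replicate 1 or 3 or lymphoma replicate 2 or 3 (adjusted p from 0.0589 to 0.0665) and with the 2 groups fitted alone (0.0861).

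Markers of other cell types showed what else the samples may hold. Summed over each list on the linear scale, macrophage and monocyte genes gave 624 to 790 in normal thymocytes and 345 to 760 in lymphomas, neutrophil genes 398 to 617 and 200 to 1161, and B lineage genes 261 to 314 and 229 to 284. Dendritic cell and MHC class II genes gave 968 to 1374 against 421 to 543, without overlap, and 4 of 12 fell, among them Cd74 (by 2.12) and H2-Aa (by 1.93), which antigen-presenting cells carry. Stromal genes gave 551 to 579 against 393 to 485, plasma cell genes 540 to 594 against 348 to 377 and erythroid genes 97 to 148 against 83 to 93, each without overlap. Platelet genes gave 72 to 85 against 69 to 71, also without overlap, while genes of natural killer cells (478 to 623 against 239 to 545) and of thymic epithelium (397 to 496 against 326 to 464) overlapped. Few single genes behind these sums were called lower: 1 of 14 stromal, 1 of 6 plasma cell, 1 of 5 erythroid and 0 of 4 platelet genes. None was called higher. Stromal and erythroid calls numbered 0 in some alternative fits. Plasma cell genes had a median difference of 0.05, with 3 of 6 positive. Calls in the macrophage and monocyte list covered 3 of 17 genes, all lower (17.6%, against 12.3% of all genes), and 5 differences were positive. Natural killer and cytotoxic genes had 2 of 11 called, both lower (18.2%), and 4 differences were positive. The called genes included the macrophage complement genes C1qa and C1qc, which fell by 1.32 and 0.86. They also included the cytotoxic granule gene Nkg7, which fell by 3.05, from 8.10, 7.92 and 7.58 to 4.20, 5.30 and 4.96. Lymphoma replicate 2 stood apart in myeloid genes, with Lyz2 at 8.28 against 5.15 and 4.73 and S100a8 at 7.16 against 3.54 and 4.15 in replicates 1 and 3. Cd163, Clec9a, Klrd1, Klrk1, Ppbp, Dcn and Lum were at the floor in all 6 arrays. The part of such cells in the changes above, among them the falls in class II, class I and interferon genes, was not tested. The 4 sex-linked genes summed to 108 to 186 in normal thymocytes and 228 to 405 in lymphomas, with no call (adjusted p = 0.208 for Xist), and the sex of the animals was not used.

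**Figure D4:**
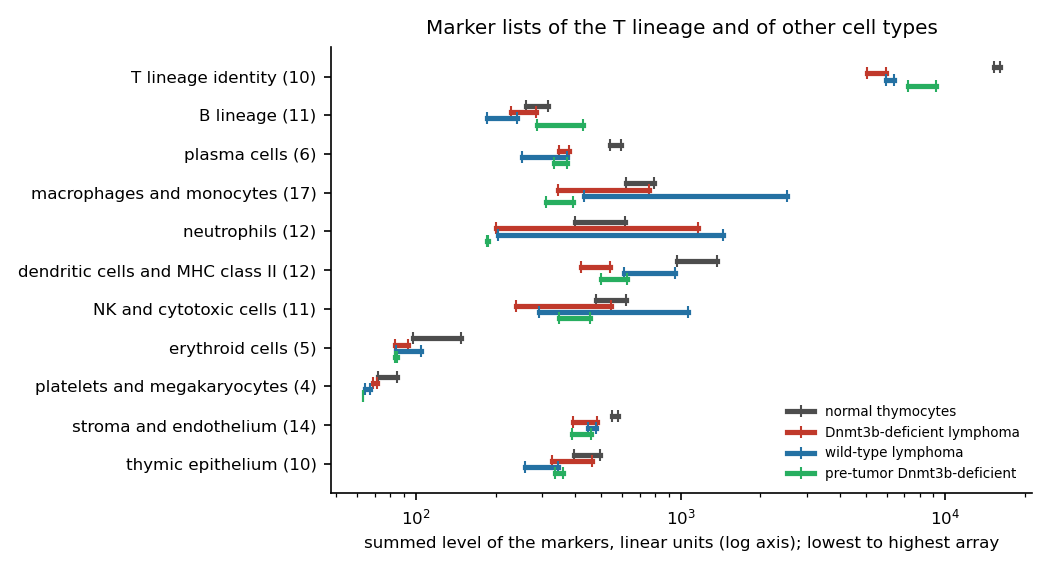
Summed linear signal of the marker genes of each cell type (log axis), drawn as a bar from the lowest to the highest array of normal thymocytes (grey, n = 3), Dnmt3b-deficient lymphoma (red, n = 3), wild-type lymphoma (blue, n = 3) and pre-tumor thymocytes (green, n = 2); the number of markers measured is in parentheses. T lineage identity runs from 15272 to 16129 in normal thymocytes and from 5047 to 5986 in Dnmt3b-deficient lymphomas, and neutrophil genes run from 200 to 1161 in the latter.

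The other groups place these changes. Against 3 wild-type lymphomas, in which Teto-MYC is present and the floxed Dnmt3b alleles stay intact for lack of Cre, 2 of 28939 probe sets (0.00691%) were called in the Dnmt3b-deficient lymphomas: Ifnz, lower by 0.65, and AI506816, higher by 5.22. This count rested on single arrays: it was 88 without wild-type lymphoma replicate 3, 82 without Dnmt3b-deficient lymphoma replicate 1, 20 without replicate 3, 9 without replicate 2 and 5 without wild-type lymphoma replicate 1, and 1 in several other settings. Against 2 samples of pre-tumor thymocytes of the lymphomas' own genotype, sorted for EGFP at 24 days, 20 (0.0691%) were called. That count was 118, 51 and 30 without lymphoma replicates 1, 2 and 3, 114 and 52 without pre-tumor replicates 1 and 2, and 8 to 10 without any 1 normal replicate. These comparisons use the same lymphoma arrays, so their values are given side by side only. Ncl averaged 6.79 in normal thymocytes, 10.23 in pre-tumor cells, 9.99 in the wild-type tumors and 10.25 in those without Dnmt3b. Npm1 averaged 6.63, 10.55, 10.11 and 10.23 in the same order. For both genes the pre-tumor cells read as high as the tumors. Rag1 averaged 11.23, 8.69, 5.25 and 5.32, Dntt 9.71, 7.60, 3.65 and 4.42, and Satb1 11.89, 10.29, 7.27 and 8.43, with the pre-tumor mean between the normal and the tumor means in each. Bcl2l1 averaged 9.12, 6.34, 5.22 and 5.27. The lymphoma lists differed from the pre-tumor samples by a median of 0.31 for ribosome biogenesis and -0.89 for double-positive genes, and from the wild-type lymphomas by 0.21 and 0.00. Called against pre-tumor cells were, among others, Tcp11l2 (lower by 1.23) and the glutathione transferase Gstk1 (by 1.06), which also fell against normal thymocytes by 2.26 and 2.07, and Znrd2 (higher by 0.76), which rose against them by 1.43. Calls depend on the size and spread of 3 against 3 or 2 samples, so a gene not called here is not shown to be equal.

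Grouped by chromosome, 1 lymphoma stood apart on chromosome 15, which carries Myc. Over its 267 genes with a mean level above 6, the median distance from the normal mean was 0.28 in lymphoma replicate 1, -0.19 in replicate 2 and -0.06 in replicate 3. In lymphoma replicate 1, 74.5% of these genes were the highest of the 3 lymphomas, against 26.6% to 39.4% on the other 18 autosomes. On the X chromosome the 3 lymphomas lay 0.25, 0.68 and 0.34 above the normal mean, and on chromosome 7 they lay at -0.21, -0.34 and -0.20. Other autosomes shifted by steps close to those of chromosome 7. The 3 lymphomas lay at 0.22, 0.29 and 0.18 on chromosome 13 and at -0.18, -0.23 and -0.13 on chromosome 17. These X and chromosome 7 shifts were not particular to the Dnmt3b-deficient lymphomas. Pre-tumor cells lay at 0.35 and 0.6 on X and at -0.25 and -0.36 on chromosome 7. Wild-type lymphomas lay at 0.52, 0.37 and 0.45 on X and at -0.31, -0.27 and -0.18 on chromosome 7. DNA copy number was not tested.

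**Figure D5:**
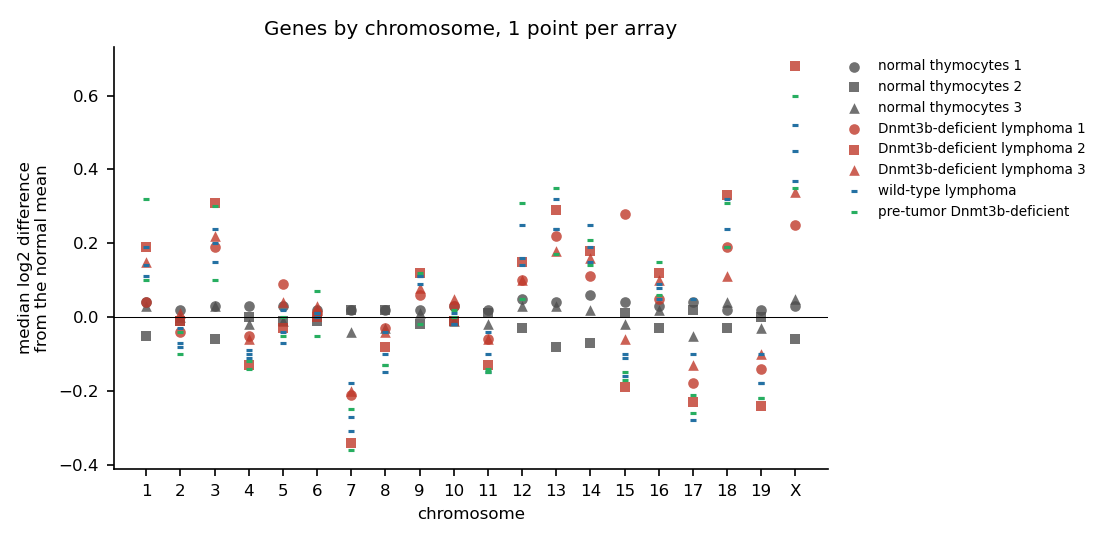
Median log2 distance of the genes of each chromosome from their mean in normal thymocytes, with 1 point per array, over 6490 genes with a mean level above 6; grey symbols are normal thymocytes, red symbols Dnmt3b-deficient lymphomas, and blue and green dashes wild-type lymphomas and pre-tumor thymocytes. The red circle of lymphoma replicate 1 lies at 0.28 on chromosome 15, where the other red symbols lie at -0.19 and -0.06.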

How the data were processed

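RNA of 11 samples in 4 groups was measured on Affymetrix whole-transcript arrays, 1 array per sample. The values are the authors' deposited log2 signals, with a floor at 3.32; Partek and RMA (a robust multi-array average) are named, without versions, per the submitters' processing notes. The genome build and the annotation behind the probe sets are not given in the sources used here. No further normalization was applied.

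Of 35512 probe sets, 6573 unnamed ones with low identifiers were left out and 28939 were tested with limma 3.58.1 in R 4.3.3. The model had 1 mean for each of 4 groups over all 11 arrays, so that the spread is shared between groups, with eBayes and Benjamini-Hochberg adjustment over all tested probe sets at 0.05. The p-values measure the spread between these samples, which may be in part technical. Precision is limited by how few arrays there are. The brightest probe set stood for each gene; of 999 genes on several probe sets, 1 was called in both directions. The script was tested on simulated data.

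The members and the 44 gene lists were chosen with earlier results of these data known. The genes named in detail are Dnmt3b, Dnmt1, Dnmt3a, Myc and Ment, the 12 largest rises and 12 largest falls without overlap, the first 2 genes of each list and up to 6 of its largest calls, up to 6 floor genes each way and the 8 genes most variable among the lymphomas. Other list members given as examples, and 5 families picked by symbol, were chosen after their values were seen. The labels number the replicates but state no pairing. Same-numbered normal and lymphoma arrays deviated from their group means with correlations of -0.0603, -0.291 and -0.206. With so few arrays these values cannot decide whether the numbers pair the samples. Alternatives were quantile scaling, median centring, filters on dim probe sets, other probe set choices, other variance settings, a fit of the 2 groups alone, a replicate block, a 2-fold minimum, a threshold of 0.01 and leaving out each array. Promoter sequences come from RefSeq, build GRCm38.p6.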

Additional observations from a re-analysis of the deposited data

Results flagged for a closer look

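AI506816 differed between the 2 kinds of lymphoma: it read 8.93, 7.97 and 8.87 in the Dnmt3b-deficient lymphomas and 3.32, 3.45 and 3.32 in the wild-type ones (difference 5.22, limma adjusted p = 0.00171), and it was called in all 21 alternative fits that hold both groups (adjusted p from 5.52e-06 to 0.043). It was at the floor of 3.32 in all 3 normal samples and read 8.91 and 8.52 in the pre-tumor cells. What this transcript is remains uncertain from the files.

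Ifnz, named on the array as an interferon gene, differed too, by -0.65 (adjusted p = 0.0359), but less stably: it was called in 9 of 21 alternative fits (adjusted p from 0.0028 to 0.278), and not, among others, with quantile scaling (0.106), the replicate block (0.278), without any 1 normal or pre-tumor sample, without Dnmt3b-deficient lymphoma replicate 2 or without wild-type lymphoma replicate 2. It read 4.84, 4.76 and 4.72 in the Dnmt3b-deficient lymphomas, 5.33, 5.41 and 5.54 in the wild-type lymphomas, 5.95, 5.96 and 5.93 in normal thymocytes and 4.46 and 4.45 in the pre-tumor cells.

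Among the 6573 unnamed probe sets left out of the main test, 829 (12.6%) were called between the Dnmt3b-deficient lymphomas and normal thymocytes when all probe sets were fitted, 405 higher and 424 lower. The sources used here do not say what these probe sets measure.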

How the results depend on the processing

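Between the lymphomas and normal thymocytes, 5860 probe sets were called. A 2-fold minimum left 2532 (1448 higher, 1084 lower) and an adjusted p under 0.01 left 3183 (1520 and 1663); the other settings gave 4270 to 6785. With the replicate block 4547 were called (2132 and 2415), and with the 2 groups alone 4517. Of 211 named genes that were called, 167 stayed called in all 22 alternative fits (scalings, filters, variance settings, sample choices and left-out arrays, not counting the 2-fold minimum and the 0.01 threshold) and 44 were lost in at least 1, 19 uncalled ones were gained, and 0 reversed. Few calls separated the lymphomas from the other MYC groups, and these counts moved most. Against wild-type lymphomas, 2 probe sets were called; the count was 6 with median centring, 7 without probe sets at the floor on all arrays, 8 without the dimmest probe sets, and 1 with quantile scaling, a variance trend, no moderation, the replicate block, a 2-fold minimum or the 0.01 threshold. Leaving out 1 array gave 1 to 88, the most without wild-type lymphoma replicate 3. Against pre-tumor thymocytes, 20 were called; the count was 9 with quantile scaling, 7 without moderation, 4 with the replicate block, 8 with a 2-fold minimum and 6 at the 0.01 threshold. Leaving out 1 array gave 8 (without normal replicate 1) to 118 (without Dnmt3b-deficient lymphoma replicate 1). The causes were not tested. Signals at the floor limit what can be read of dim genes.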

Other observations

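The 3 lymphomas varied more among themselves than the 3 normal samples. A range of at least 1 log2 unit was seen in 951 genes among the lymphomas and 346 among the normal samples, one of at least 2 units in 149 and 19, and one of at least 3 units in 34 and 0. Bex1 had the widest range (4.89), at 3.32, 8.21 and 3.73. Il2ra, the interleukin 2 receptor alpha chain, read 3.94, 8.30 and 4.08, and Chil3, a chitinase-like protein of macrophages, 3.87, 7.84 and 3.43, so lymphoma replicate 2 was the high one in all 3 genes. Jun, a subunit of AP-1, was high in replicate 1 (9.02, 4.69 and 4.75) and the junction protein gene Jup in replicate 3 (4.21, 4.45 and 8.72). Hdc, which makes histamine, Tead1, a partner of YAP, and the ribosomal protein paralog Rpl39l were low in replicate 1 and high in the others (4.73, 9.22 and 8.87; 5.14, 9.43 and 8.41; 3.32, 7.63 and 7.68).

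Some genes were read only in 1 group. At the floor in all 3 normal samples and called higher were 5 genes, and at the floor in all 3 lymphomas and called lower were 13, while 2679 genes were at the floor in all 6. Besides Rag2, the second set held Akr1c18, a steroid dehydrogenase, at 4.71, 4.56 and 4.58 in normal thymocytes, and Rasgrf2, a Ras exchange factor, at 4.08, 4.12 and 3.89.

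In a family of 35 subunits of respiratory complex I, picked after the values were seen, 5 rose and 3 fell, with a median of 0.11 and Ndufs1 the largest rise (1.37); 3 rose without any 1 normal replicate or without lymphoma replicate 1 or 2.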
